A study of Mus musculus with 28 samples.

Results

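The 9 lymphomas described here are Emu-myc mouse B-cell lymphomas with little Cd5, divided by how much Jchain their untreated cells expressed. They were chosen from measured values: of 14 lymphomas, 9 had an untreated Cd5 value below 9 on the log2 scale of the arrays, and these were ranked by untreated Jchain. The 4 highest (lymphomas 9584, 3594, 9583 and 1570) form the Jchain-high group and the other 5 (1467, 3769, 5560, 2581 and 403) the Jchain-low group. The 5 remaining lymphomas (6054, 2949, 5766, 5043 and 7050) are called Cd5-high and serve only for comparison. Values listed for a group below follow these orders.

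All 14 lymphomas carried the Emu-myc transgene, which drives Myc from the immunoglobulin heavy chain enhancer in the B lineage, arose in C57BL/6 mice and were taken from lymph nodes. All had been transduced with a retrovirus carrying Bcl2 and a puromycin resistance gene, so that both groups express this inhibitor of apoptosis, and all were grown on a feeder layer of mouse NIH 3T3 fibroblasts that had been gamma-irradiated. From each lymphoma came 1 array of cells exposed to Adriamycin (ADR), a DNA-damaging topoisomerase poison, at 0.05 µg/ml over 5 days, and 1 array of untreated cells, so that there were 28 arrays. One array was made per lymphoma and treatment, and the labels describe each of these lymphomas by its own identifier, so n counts lymphomas. In all of these cultures expression comes from a mixture of cells, and fewer cells of a type and less RNA per cell cannot be told apart. The number of arrays limits the precision.

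B cells begin as pro-B and pre-B cells, which rearrange their antibody genes with the Rag recombinase and the polymerase encoded by Dntt, depend on the interleukin 7 receptor, and display a surrogate light chain made of the Vpreb1 and Igll1 products. Mature B cells carry a finished antibody as receptor together with Ms4a1 (CD20) and class II MHC. Plasma cells turn the antibody into a secreted product under Prdm1, Irf4 and Xbp1, with an enlarged endoplasmic reticulum. Jchain encodes the joining chain that links IgM or IgA units into polymers, and its expression is a known mark of antibody-secreting cells.

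Jchain itself defines the groups and is given without a test. Its untreated values were 13.42, 12.62, 12.23 and 12.06 in the Jchain-high lymphomas, against 9.22, 7.70, 7.21, 6.41 and 5.67 in the Jchain-low lymphomas and 3.40 to 4.72 in the Cd5-high lymphomas. Lymphoma 1570, at 12.06, was the lowest member just inside the Jchain-high group and lymphoma 1467, at 9.22, the nearest outside it. The Jchain-low group was thus far from uniform, and each of its members lay above the highest Cd5-high lymphoma. Cd5, a surface glycoprotein of T cells and of B-1 cells, stood at 4.88, 4.21, 5.40 and 6.22 in Jchain-high and at 6.89, 4.32, 7.19, 3.99 and 6.60 in Jchain-low lymphomas. The value nearest the limit among the 9 was 7.19 in lymphoma 5560, and the nearest outside was 9.81 in lymphoma 7050. In ADR arrays, which the choice of groups did not use, Jchain read 12.31, 13.02, 12.35 and 10.94 in Jchain-high and 11.43, 8.82, 6.23, 10.29 and 6.45 in Jchain-low lymphomas. The ADR groups overlapped, because lymphoma 1467 reached 11.43 and lymphoma 1570 stood at 10.94, and the difference of 3.51 ± 1.07 (SE) had a limma adjusted p of 0.806. Lymphoma 2581 had the widest gap between its own arrays among the 9, with 10.29 after ADR and 6.41 untreated. The promoter of Jchain, from 250 bases before to 50 after the start, is shown because this gene sets the groups. It is taken from RefSeq on GRCm38.p6, chr5:88527848-88528147, minus strand, 5′ to 3′.
Jchain: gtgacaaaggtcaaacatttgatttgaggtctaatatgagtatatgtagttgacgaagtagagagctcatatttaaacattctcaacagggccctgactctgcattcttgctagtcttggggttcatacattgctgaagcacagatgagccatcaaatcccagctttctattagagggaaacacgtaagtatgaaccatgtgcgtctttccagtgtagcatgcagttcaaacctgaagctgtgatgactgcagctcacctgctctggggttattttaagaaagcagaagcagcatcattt
It holds neither of the motifs that were searched on both strands, the octamer ATTTGCAT of immunoglobulin promoters, which occurs in 1.74% of all 32851 promoter windows of this length, and CCACG, the end of the endoplasmic reticulum stress element, which occurs in 32.8%.

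**Figure D1:**
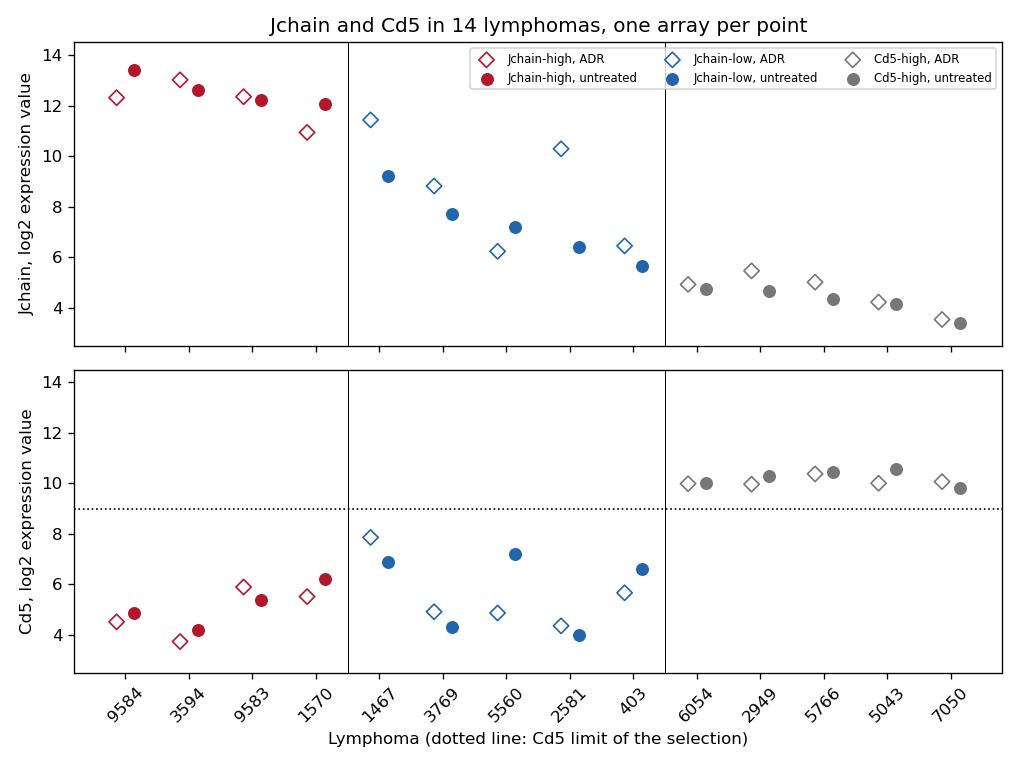
Log2 expression values of Jchain (top) and Cd5 (bottom) in the ADR array (open diamonds) and the untreated array (filled circles) of each lymphoma, by group. Untreated Jchain lies at 12.06 or more in the Jchain-high and at 9.22 or less in the Jchain-low lymphomas by construction, while the ADR values of lymphomas 1467 and 2581 reach 11.43 and 10.29.

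The 9 lymphomas were checked against markers of the B lineage. The receptor chain gene Cd79a read 10.95, 11.17, 11.31 and 11.35 in Jchain-high and 10.96, 11.20, 10.98, 11.46 and 10.79 in Jchain-low lymphomas, and the adaptor gene Blnk between 11.48 and 12.39 in Jchain-high and between 11.44 and 12.14 in Jchain-low lymphomas. Both genes were high throughout, and the groups overlapped. The mean over 12 T cell genes lay between 4.77 and 5.15 in Jchain-high and between 4.65 and 5.14 in Jchain-low lymphomas, near the low end of the scale. Myc stood at 11.21 to 11.75 in Jchain-high and 11.40 to 12.20 in Jchain-low lymphomas, and Bcl2 at 11.60 to 11.94 in Jchain-high and 11.51 to 12.78 in Jchain-low lymphomas. Whether these probe sets also read the transgenes was not tested. Array medians lay between 4.71 and 4.80, and the 3' minus 5' signal of actin, a sign of RNA degradation, between 0.21 and 0.43 in Jchain-high and between 0.18 and 0.38 in Jchain-low untreated arrays. It reached 0.92 in the ADR array of lymphoma 1570.

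Across 18192 genes, no difference between the untreated groups passed an adjusted p of 0.05 in limma. The smallest adjusted p was 0.197, for Mamdc2. At an unadjusted p below 0.05, 603 genes differed (3.31%), of which 398 were higher (2.19%) and 205 lower (1.13%) in Jchain-high lymphomas. Chance alone passes this limit in about 1 in 20 genes. In 155 genes (0.852%) every Jchain-high lymphoma lay above every Jchain-low lymphoma, and in 66 (0.363%) every one lay below. The differences below are therefore values without a call. For a single gene, the exact two-sided permutation test over the 126 ways to choose 4 of 9 lymphomas cannot go below p = 0.0159, and a gene whose groups do not overlap reaches that value by definition. For each gene, 1 of the 126 ways holds its 4 highest values, so some genes separate any groups of these sizes. Lymphomas 9584 and 9583 are both Jchain-high and are not among the samples labelled as taken over from an earlier series, whereas all 5 Jchain-low lymphomas are. Xist, the RNA of the inactive X chromosome, was above 9 in 1 of 4 Jchain-high and 3 of 5 Jchain-low lymphomas.

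Plasma cell genes other than Jchain mostly lay higher in the Jchain-high lymphomas. Of 20 measured members, 16 had a difference above 0, against 54.6% of all genes, and the median difference was 0.40 on the log2 scale, against 0.02 over all genes. At an unadjusted p below 0.05, 5 of the 20 were higher and 0 lower, where 2.19% of all genes were higher. In 2 of the 20, Tnfrsf17 and Txndc5, the groups did not overlap, where 0.852% of all genes were above in this way. Within the lymphomas of the earlier series (2 against 5), the median was 0.42 and the groups did not overlap for 6 of the 20, where 3.51% of all genes were above in this way. With Xist as a covariate the median was 0.54, and with the mean of fibroblast genes (the mark of the feeder) 0.62. With the mean of macrophage genes it was 0.37, and with array weights 0.36. When 1 lymphoma was left out, it ranged from 0.29 (without 2581) to 0.60 (without 9583). The count of 2 became 5 without lymphoma 9583, 4 without 1467 and 4 without 3769. Leaving out a lymphoma can only keep or raise this count, and the matching shares of all genes were not computed. The list was drawn up with results of these arrays known, so these counts describe it and test nothing.

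Tnfrsf17, which encodes the receptor BCMA that sustains plasma cells, read 6.77, 4.74, 5.92 and 5.48 in Jchain-high lymphomas, against 4.23, 4.27, 4.34, 4.30 and 4.20 in Jchain-low lymphomas. The 5 Jchain-low values lay within the range of the Cd5-high lymphomas apart from lymphoma 5560, and all 4 Jchain-high values were above both. The difference was 1.46 ± 0.33 (SE, n = 4 and 5; limma adjusted p = 0.999). Txndc5, a disulfide isomerase of the endoplasmic reticulum, read 10.97, 10.23, 10.38 and 9.99 in Jchain-high and 9.38, 9.71, 9.37, 9.61 and 9.72 in Jchain-low lymphomas, with a difference of 0.83 ± 0.19. Here the Jchain-low lymphomas were in turn above the Cd5-high ones, which reached 9.16. Eaf2, a partner of transcription elongation factors, read 8.31, 7.42, 7.19 and 7.81 in Jchain-high and 7.31, 6.87, 6.55, 5.76 and 6.46 in Jchain-low lymphomas. A single Jchain-low lymphoma, 1467, lay above the lowest Jchain-high one, and the difference was 1.09 ± 0.32 (exact permutation p = 0.0317).

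The regulators of the plasma cell programme overlapped between the groups. Xbp1, the transcription factor of the secretory apparatus, read 11.42, 11.24, 10.80 and 11.06 in Jchain-high and 10.22, 10.92, 10.37, 9.33 and 10.36 in Jchain-low lymphomas, a difference of 0.89 ± 0.28 (exact permutation p = 0.0317). Lymphoma 3769 was the one Jchain-low lymphoma inside the Jchain-high range. Prdm1, which encodes the repressor Blimp-1, read 10.03, 8.42, 8.35 and 8.04 in Jchain-high and 4.85, 9.62, 7.08, 7.34 and 5.01 in Jchain-low lymphomas. Again lymphoma 3769, at 9.62, stood among the Jchain-high values, while 1467 and 403 were near 5. Its difference of 1.93 ± 0.92 was wider than those of Xbp1 and Irf4 and had an exact permutation p of 0.143. Irf4, a factor that drives plasma cell formation, read 9.58, 9.37, 8.89 and 8.70 in Jchain-high and 9.45, 9.02, 7.54, 8.63 and 7.80 in Jchain-low lymphomas, with a difference of 0.65 ± 0.39.

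Other known plasma cell genes also overlapped between the groups. Fkbp11, a prolyl isomerase of the endoplasmic reticulum, differed by 1.05 ± 0.37, with 1 of its 3 probe sets near 0 (-0.01). Sdc1, the plasma cell surface marker CD138, read 8.88, 8.53, 7.59 and 7.66 in Jchain-high and 8.05, 7.56, 9.13, 7.63 and 7.32 in Jchain-low lymphomas, and its highest value was in the Jchain-low lymphoma 5560. Mzb1, a chaperone of IgM assembly, was high in all 9, between 12.26 and 12.91 in Jchain-high and between 11.49 and 12.83 in Jchain-low lymphomas. Ell2, an elongation factor that favours the secreted form of antibody mRNA, read 10.40, 8.86, 9.44 and 9.94 in Jchain-high and 9.62, 8.35, 9.94, 2.17 and 9.34 in Jchain-low lymphomas. Lymphoma 2581 alone was low in Ell2, and its ADR array was low too, at 5.89. Over the whole plasma cell list, the mean level was 9.77, 8.999, 8.82 and 9.06 in Jchain-high and 8.68, 8.91, 8.97, 8.11 and 8.36 in Jchain-low lymphomas. Lymphoma 9584 had the highest mean, and lymphoma 9583 lay below the Jchain-low lymphomas 3769 and 5560.

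**Figure D2:**
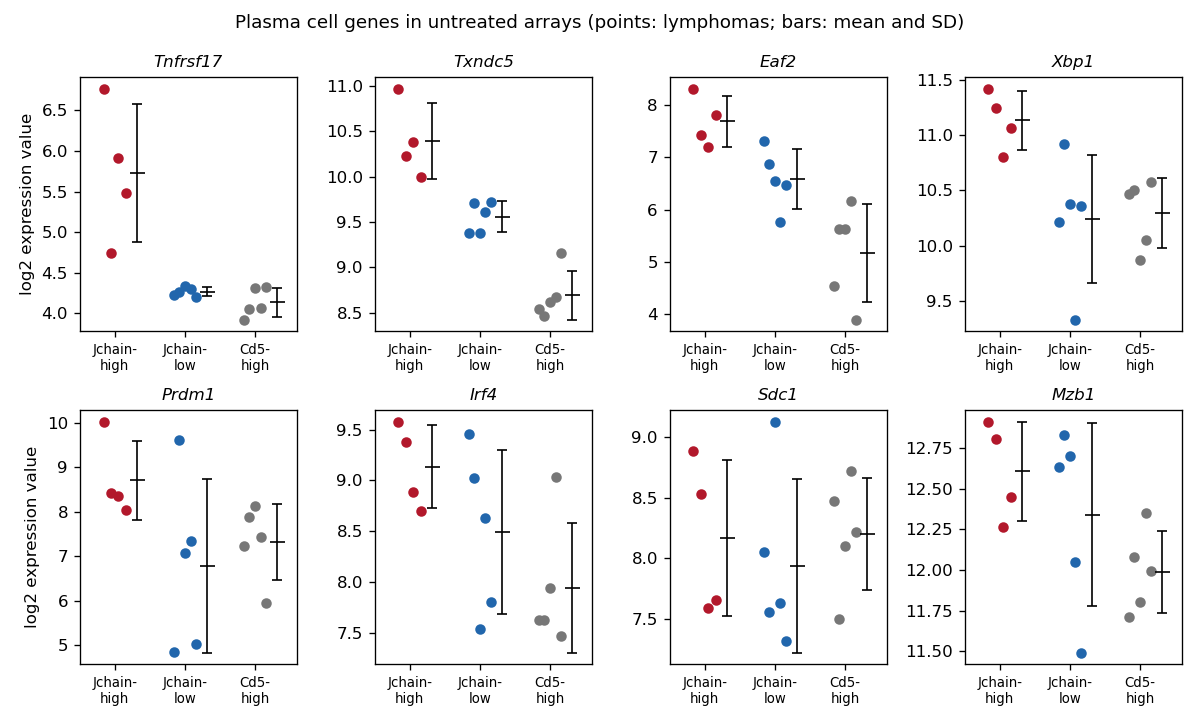
Log2 expression values of 8 plasma cell genes in untreated arrays, with 1 point per lymphoma and the mean and SD beside each group (Jchain-high n = 4, Jchain-low n = 5, Cd5-high n = 5). The Jchain-high and Jchain-low points are apart for Tnfrsf17 and Txndc5 and overlap for the other 6 genes, with Sdc1 highest in the Jchain-low lymphoma 5560.

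The antibody genes pointed to the same side without a call. Of 14 immunoglobulin genes listed, 5 were measured. All 5 had a difference above 0, against 54.6% of all genes. Their median was 0.68, which is the value of the single gene Iglv1. This median was 0.44 without lymphoma 9583, 0.24 without 1570 and 0.21 without 1467. It was 0.26 with array weights, 0.29 with the fibroblast covariate and 0.21 with the Xist covariate, and in ADR arrays 3 of the 5 lay above 0 with a median of 0.09. Ighm, the heavy chain of IgM, read 14.33, 13.05, 13.96 and 14.14 in Jchain-high and 12.98, 12.49, 13.72, 12.55 and 12.90 in Jchain-low lymphomas, with a difference of 0.94 ± 0.31 (exact permutation p = 0.0317). Lymphoma 3594 lay below the Jchain-low lymphoma 5560. The light chain gene Iglv1 stood at 5.64 in lymphoma 1467 and at 9.23 or more in the other 8, and without lymphoma 1467 its difference of 0.68 turned to -0.25. Of 22 genes of folding in the endoplasmic reticulum, 14 lay above 0 (median 0.17), against 54.6% of all genes. At an unadjusted p below 0.05 by limma, 2 were higher, where 2.19% of all genes were. These 2 were Xbp1 and the Hsp40 co-chaperone gene Dnajb11, whose difference was 0.27 ± 0.10.

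Markers of the early stages cut across the division by Jchain. Of 19 pro-B and pre-B genes, 5 had a difference above 0, against 54.6% of all genes, and the median was -0.18. At an unadjusted p below 0.05 by limma, 0 of the 19 differed in either direction, where 3.31% of all genes did. The median ranged from -0.33 without lymphoma 1467 to -0.03 without 3769, and it was -0.29 without 403, between -0.09 and -0.04 without 3594, 9583, 1570, 5560 or 2581, and -0.34 with the fibroblast covariate. Dntt, which adds nucleotides at antibody gene joints, read 9.09, 9.92, 6.14 and 4.63 in Jchain-high and 4.34, 10.39, 5.20, 5.16 and 5.22 in Jchain-low lymphomas. It was therefore high in 9584 and 3594, which are Jchain-high, and highest in 3769, which is Jchain-low, and its exact permutation p was 0.508. Vpreb1, a surrogate light chain gene, read 4.35, 6.06, 4.40 and 4.02 in Jchain-high and 4.42, 5.81, 9.45, 4.80 and 4.36 in Jchain-low lymphomas. One lymphoma, 5560, was high in Vpreb1 and also in its partner Igll1 (9.71), and the difference of -1.06 ± 1.00 had an exact permutation p of 0.365. Without lymphoma 5560 the difference of Vpreb1 was -0.14 and that of Igll1 -0.03.

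The recombinase gene Rag1 read 7.21, 7.36, 4.38 and 5.28 in Jchain-high and 3.65, 6.73, 3.65, 8.15 and 3.76 in Jchain-low lymphomas, with the highest value in lymphoma 2581. Rag2, its partner, was near the low end in all 9 (up to 5.30 in lymphoma 2581). Il7r, the interleukin 7 receptor chain, read 8.36, 9.11, 5.06 and 4.55 in Jchain-high and 4.09, 10.01, 9.94, 8.99 and 7.26 in Jchain-low lymphomas. Its low values fell in 9583 and 1570 on one side and in 1467 on the other. The transcription factor gene Sox4, expressed in progenitors, was at 5.03 in lymphoma 1467 and at 8.38 or more in the other 8. Kit, a receptor of early progenitors, lay between 3.37 and 3.95 in Jchain-high and between 3.63 and 4.04 in Jchain-low lymphomas.

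**Figure D3:**
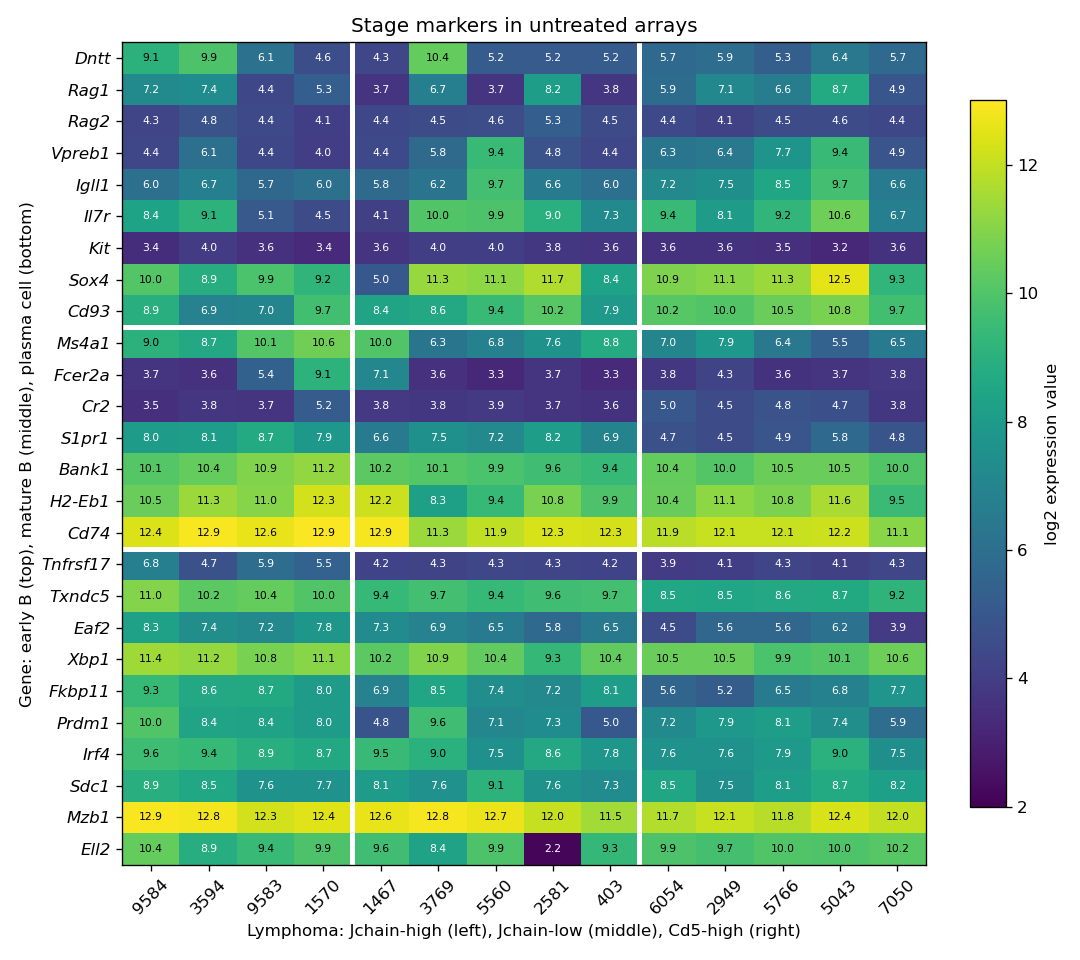
Log2 expression values in untreated arrays of 9 early B, 7 mature B and 10 plasma cell genes (rows) in each lymphoma (columns: Jchain-high, Jchain-low, Cd5-high from left to right). Dntt is high in 9584 and 3594 and in 3769, Fcer2a in 1570 and in 1467, and Tnfrsf17 is at 4.74 or more in the Jchain-high lymphomas and at 4.34 or less in the other 10.

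Mature B-cell genes lay above 0 more often than early ones, while single markers again cut across the division. Of 19 mature naive B genes, 15 had a difference above 0 (median 0.33), against 54.6% of all genes. At an unadjusted p below 0.05 by limma, 2 were higher, Ms4a1 and S1pr1, where 2.19% of all genes were higher. Ms4a1 read 9.05, 8.66, 10.06 and 10.60 in Jchain-high and 10.02, 6.28, 6.83, 7.59 and 8.76 in Jchain-low lymphomas, a difference of 1.69 ± 0.74 (exact permutation p = 0.0952). Lymphoma 1467, with 10.02, stood among the Jchain-high values. S1pr1, the receptor that guides lymphocyte exit from tissues, read 8.04, 8.11, 8.74 and 7.88 in Jchain-high and 6.59, 7.54, 7.17, 8.18 and 6.92 in Jchain-low lymphomas. Fcer2a, the low-affinity IgE receptor CD23 of follicular B cells, read 3.69, 3.55, 5.44 and 9.12 in Jchain-high and 7.11, 3.58, 3.26, 3.72 and 3.34 in Jchain-low lymphomas. High Fcer2a thus occurred in 1 lymphoma at each side, 1570 and 1467, which also had the highest means of the mature naive list, 9.32 and 9.30. Cr2, a complement receptor of mature B cells, reached 5.22 in 1570 and at most 3.88 in the other 8. Without lymphoma 1467 the median of this list was 0.52, and without lymphoma 1570 it was -0.05.

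Genes of antigen presentation by MHC class II lay above 0 in 10 of 10 cases, against 54.6% of all genes. Their median was 0.70, and 0 had an unadjusted p below 0.05 by limma. The median was 0.33 without lymphoma 1570, 0.33 without 3769 and 1.16 within the earlier series. H2-Eb1, a class II beta chain, read 10.50, 11.33, 11.01 and 12.26 in Jchain-high and 12.17, 8.26, 9.36, 10.81 and 9.95 in Jchain-low lymphomas. The value of lymphoma 1467 was close to the highest Jchain-high one. Of 21 genes of B cell receptor signalling, 18 lay above 0, again against 54.6% of all genes (median 0.22, or 0.14 without lymphoma 403). The scaffold gene Bank1 differed by 0.82 ± 0.25 (exact permutation p = 0.0317). Among 30 B-lineage transcription factors, 19 lay above 0 (median 0.14). Their median was 0.06 without lymphoma 9584, 0.05 without 9583 and 0.02 without 1467. Pax5, the B-cell identity factor, differed by 0.03 ± 0.14, Ebf1 by -0.36 ± 0.28 and Bach2, a repressor of plasma cell differentiation, by -0.63 ± 0.38. Germinal centre genes (7 of 11 above 0, median 0.12) and marginal zone and B-1 genes (7 of 14, median 0.03) had 0 members at an unadjusted p below 0.05 by limma. Bcl6, the germinal centre regulator, differed by 0.17 ± 0.40.

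Interferon-response genes lay on the opposite side. The difference was below 0 in 17 of 17 measured members, with a median of -0.73, and 2 reached an unadjusted p below 0.05, where 1.13% of all genes were lower. These were the apoptosis-related Xaf1 (-1.05 ± 0.42) and the oligoadenylate synthetase gene Oas1a (-1.41 ± 0.57). The mean over the list was 7.56, 5.56, 5.75 and 5.41 in Jchain-high and 6.26, 6.16, 7.47, 6.39 and 8.12 in Jchain-low lymphomas. Lymphoma 9584 was thus close to 5560, and 3 of the 4 Jchain-high lymphomas were below all 5 others. Of the macrophage genes, 10 of 16 lay below 0 (median -0.43). Whether the 2 lists vary together was not tested, and lymphoma 3594 had a macrophage mean of 7.52 with an interferon mean of 5.56. The sign of this median turned without lymphoma 9583 (0.01), 1570 (0.03) or 5560 (0.01) and with the fibroblast covariate (0.30), and it was -0.90 without 9584, -0.71 without 1467 and -0.07 without 403. Their list mean was 8.69, 7.52, 5.96 and 5.30 in Jchain-high and 5.43, 7.32, 8.63, 6.63 and 7.99 in Jchain-low lymphomas, highest in 9584, 5560 and 403, and with this mean as a covariate the interferon median was -0.51. It was -0.02 with the fibroblast mean as a covariate and -1.31 within the earlier series, and -1.20 without lymphoma 9584, -0.42 without 1570 and -0.42 without 403. The untreated fibroblast means behind this covariate spanned 4.78 to 5.18, near the array medians of 4.71 to 4.80. What the covariate measures at this level was not tested. The monocyte receptor gene Cd14 read 7.89, 10.03, 6.05 and 5.49 in Jchain-high and 5.25, 9.81, 11.28, 7.48 and 10.62 in Jchain-low lymphomas, and the complement gene C1qa lay between 3.59 and 6.30 in Jchain-high and between 3.70 and 3.98 in Jchain-low lymphomas.

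Cell-cycle genes had medians near 0, with 10 of 19 G2/M genes (0.03) and 8 of 20 S phase genes (-0.05) above 0. The Myc network (11 of 20, median 0.05), the p53 pathway (6 of 13, -0.03) and the interleukin 7 and STAT5 list (4 of 12, -0.09) had medians near 0 too. Of all genes, 54.6% lay above 0. At an unadjusted p below 0.05 by limma, 1 gene was lower in each of the S phase (Tyms), Myc network (Mxi1) and interleukin 7 and STAT5 lists. Of all genes, 1.13% were lower in this way. The member of the interleukin 7 and STAT5 list was Socs2, a STAT5 target and feedback inhibitor, with a difference of -1.25 ± 0.41. T cell (8 of 12 above 0), natural killer cell (4 of 7), granulocyte (5 of 9), erythroid (3 of 5) and dendritic cell lists (6 of 9) had medians between 0.01 and 0.06. Fibroblast genes, the mark of the feeder, lay below 0 in 16 of 23 cases with a median of -0.07, and their untreated mean was 5.10, 4.79, 4.82 and 4.78 in Jchain-high and 5.18, 4.95, 5.12, 4.83 and 5.06 in Jchain-low lymphomas.

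**Figure D4:**
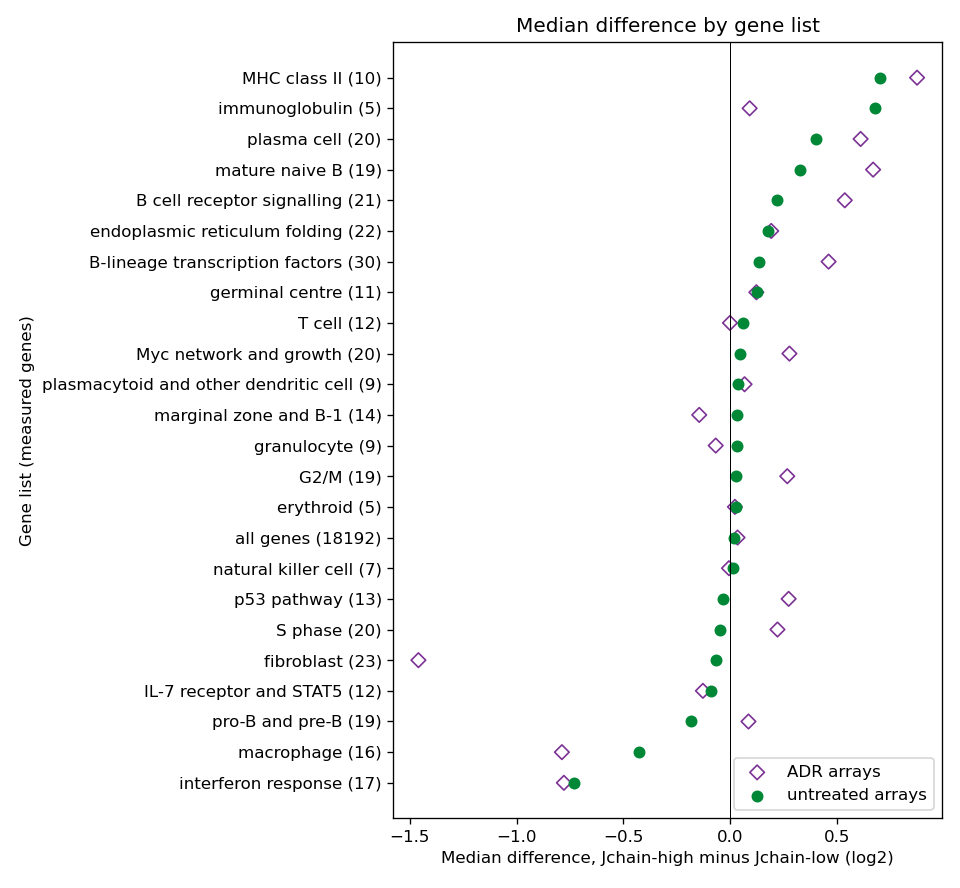
Median over each gene list of the difference, Jchain-high minus Jchain-low on the log2 scale, in ADR arrays (open diamonds) and untreated arrays (filled circles), with the number of measured genes in brackets. The list of 4 sex-linked genes, with an untreated median of 1.73, is not drawn. Of the lists drawn, in untreated arrays class II MHC (0.70), immunoglobulin (0.68) and plasma cell genes (0.40) are farthest to the right and interferon-response genes (-0.73) farthest to the left, with all genes at 0.02.

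Outside the lists, the genes that separated the groups most widely were few and mostly of low level. Mamdc2, which encodes a secreted proteoglycan, read 7.43, 5.91, 6.53 and 6.63 in Jchain-high and 4.61, 3.46, 3.59, 3.55 and 4.48 in Jchain-low lymphomas, a difference of 2.69 ± 0.35 (limma adjusted p = 0.197). Lymphomas 3769, 5560 and 2581 were at the low end of the Cd5-high range (3.57 to 4.00) or below it, and 1467 and 403 above it. Crisp3, a cysteine-rich secretory protein, had the largest difference among genes whose groups did not overlap, 2.91 ± 0.52, with 6.28, 4.84, 7.13 and 5.07 in Jchain-high and 4.17, 2.77, 2.81, 2.71 and 2.15 in Jchain-low lymphomas. Ak7, an adenylate kinase, read 6.89, 6.55, 6.70 and 5.87 in Jchain-high and 4.67, 5.03, 4.76, 5.19 and 5.31 in Jchain-low lymphomas, a difference of 1.51 ± 0.22 (limma adjusted p = 0.328). Mamdc2 and Ak7 were the 2 genes called when all 14 untreated arrays shared 1 estimate of the spread, with adjusted p = 0.00364 for Mamdc2 and 0.0213 for Ak7.

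Cracdl differed by 2.65 ± 0.52, but lymphoma 1570 was at 4.82, close to the highest Jchain-low value of 4.60. Itih5, a hyaluronan-binding inhibitor chain, differed by 2.18 ± 0.61, and here the Cd5-high lymphomas were high as well (5.29 to 8.15). The remaining members of the 10 largest were Tnfrsf17, the endoplasmic reticulum exit protein gene Sec16b (1.43), the serpin Serpinb7 (1.29), the endocytic adaptor Ston2 (1.14) and the actin-bundling plastin Pls1 (1.00).

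In the other direction the 10 largest differences of genes without overlap ran from -1.26 for the membrane protein gene Tm4sf1 to -0.64 for Arhgap33. Between them were 4930428B01Rik (-1.03), the aldo-keto reductase Akr1b8 (-1.03), Rpl39l (-0.88), the metalloproteinase inhibitor Timp1 (-0.79), the coreceptor Nrp1 (-0.77), Kansl1l (-0.77), Pogk (-0.71) and the intermediate filament gene Vim (-0.66). Timp1 read 4.95, 4.78, 4.63 and 5.05 in Jchain-high and 6.47, 5.51, 5.48, 5.12 and 5.64 in Jchain-low lymphomas. In ADR arrays Tm4sf1, Akr1b8, Rpl39l and Timp1 were highest in lymphomas 403 and 5560, where the fibroblast list was highest too. The part of feeder cells in these 4 values was not tested.

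The same division of lymphomas was then applied to the ADR arrays, where it had not been drawn. These come from the same lymphomas, so they are a second measurement and not a second set of tumours. No gene passed an adjusted p of 0.05 in limma here either. The smallest adjusted p was 0.466 (A430035B10Rik). At an unadjusted p below 0.05, 591 genes were higher (3.25%) and 262 lower (1.44%), and the groups did not overlap in 151 (0.83%) and 75 genes (0.412%). Of the genes without overlap, 4 were above in both kinds of array, 2.65% of those in ADR and 2.58% of those in untreated arrays. They were the membrane glycoprotein gene Gpm6a, Oosp2, Serpinb7 and the HMG-box gene Tox2. One gene, Gm11269, was below in both, and Aldh1a7 lay on opposite sides.

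In ADR arrays 17 of 20 plasma cell genes lay above 0, against 56.7% of all genes, with a median of 0.61, against 0.03 over all genes. At an unadjusted p below 0.05, 8 of 20 were higher and 0 lower, where 3.25% of all genes were higher. The groups did not overlap for 3 of the 20, where 0.83% of all genes were above in this way. Eaf2 read 7.49, 7.98, 8.02 and 7.76 in Jchain-high and 5.82, 4.53, 3.98, 6.97 and 4.92 in Jchain-low lymphomas, a difference of 2.57 ± 0.53 (exact permutation p = 0.0159, the smallest possible). Irf4 read 9.46, 9.26, 10.22 and 9.83 in Jchain-high and 8.40, 9.20, 6.72, 9.20 and 7.72 in Jchain-low lymphomas, a difference of 1.44 ± 0.50. Edem1, which targets misfolded glycoproteins for degradation, differed by 0.71 ± 0.21, and none of these 3 had an adjusted p below 0.806 in limma. Tnfrsf17 read 5.61, 4.48, 6.11 and 5.69 in Jchain-high and 4.68, 4.18, 4.06, 4.35 and 4.21 in Jchain-low lymphomas, where lymphoma 1467 passed 3594. Within the earlier series the groups did not overlap for 7 of the 20, where 3.11% of all genes were above in this way, and the median was 0.70. The count of 3 became 5 without lymphoma 9584, 5 without 3594 and 6 without 1467. It too can only stay or rise when a lymphoma is left out, and no matching shares of all genes were computed. The mean over the list was 9.26, 9.45, 9.34 and 9.26 in Jchain-high and 8.75, 8.75, 8.60, 9.001 and 8.53 in Jchain-low lymphomas, without overlap.

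Feeder genes differed beside these values. The fibroblast list mean in ADR arrays was 5.90, 7.52, 6.26 and 5.50 in Jchain-high and 5.07, 7.55, 9.30, 7.49 and 9.50 in Jchain-low lymphomas, highest in 5560 and 403, and 22 of 23 members lay below 0 with a median of -1.46 (-2.39 without lymphoma 1467, -0.33 without 403 and 5560). Without these 2 lymphomas the plasma cell median in ADR arrays was 0.36, and with the fibroblast mean as a covariate it was 0.42. When the 2 lymphomas were left out, the plasma cell genes without overlap were Irf4, Edem1, Ell2 and Eaf2. Leaving lymphomas out can only add to these genes, and the matching share of all genes was not computed. In ADR arrays 56.7% of all genes lay above 0. Mature naive B genes lay above 0 in 19 of 19 cases (median 0.67). B-lineage transcription factors did so in 27 of 30 (0.46) and B cell receptor signalling genes in 20 of 21 (0.54). With the fibroblast mean as a covariate the medians of the mature naive B and class II MHC lists in ADR arrays were -0.10 and -0.0034, and without the 2 lymphomas 0.15 and 0.25. Those of the transcription factor and receptor signalling lists were 0.19 and 0.10 with this covariate, and 0.25 and 0.18 without the 2 lymphomas. Without lymphoma 1570 the mature naive B median was 0.23 and the class II MHC median 0.41, and the class II MHC median was 0.51 without 5560 and 1.32 without 1467. Without lymphoma 403 the receptor signalling median was 0.31. Interferon-response genes lay below 0 in 16 of 17 cases (-0.78), class II MHC genes above 0 in 9 of 10 (0.87) and pro-B and pre-B genes in 11 of 19 (0.09). At an unadjusted p below 0.05 by limma, 2 of the 19 pro-B and pre-B genes were higher and 0 lower, where 3.25% of all genes were higher. These 2 were Spn and Igll1, and Igll1 had lain on the other side in untreated arrays. The interferon median was -1.59 without lymphoma 9584, -0.51 without 3594 and -0.33 without 9583, and the pro-B and pre-B median was -0.09 without 403 and 5560. Dntt read 4.82, 6.37, 4.34 and 4.71 in Jchain-high and 5.34, 6.78, 4.83, 5.08 and 5.51 in Jchain-low lymphomas, at most 6.78, so that the high untreated values of 9584, 3594 and 3769 were not seen in their ADR arrays. Vpreb1 in lymphoma 5560 was at 4.42 after ADR and 9.45 untreated.

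**Figure D5:**
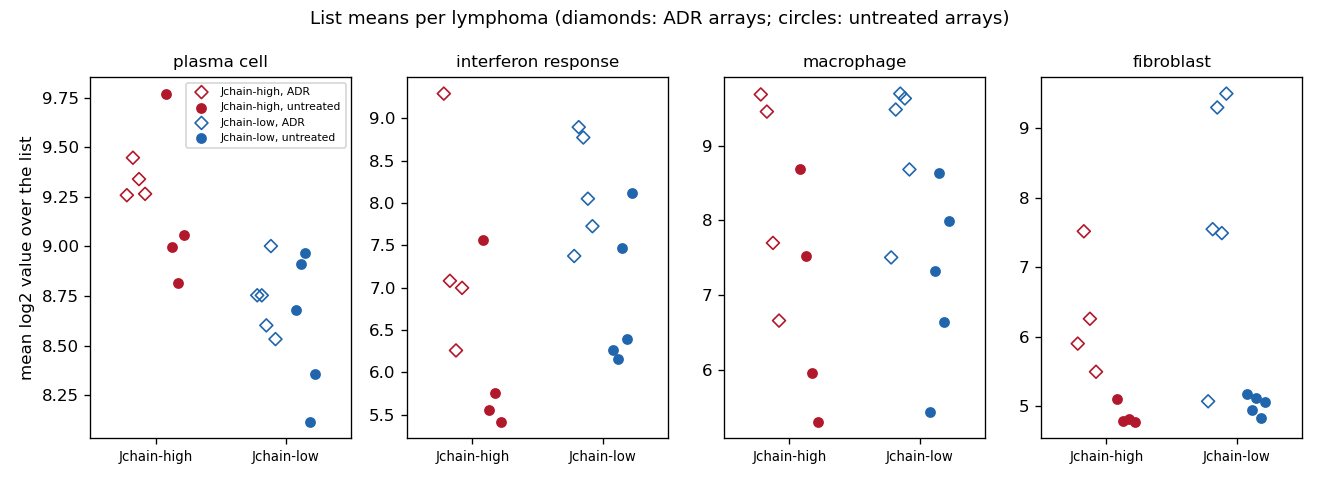
Mean log2 value over the plasma cell, interferon-response, macrophage and fibroblast lists in each lymphoma, in ADR arrays (open diamonds) and untreated arrays (filled circles). Plasma cell means do not overlap in ADR arrays, while the fibroblast means of the same ADR arrays reach 9.50 in Jchain-low and 7.52 in Jchain-high lymphomas.

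Of the plasma cell genes whose groups were apart in untreated or in ADR arrays, those for which RefSeq lists 1 start were taken. Their promoters are shown, with groups apart in untreated arrays for Tnfrsf17 and in ADR arrays for Irf4 and Edem1. They are from GRCm38.p6, plus strand, 5′ to 3′, from 250 bases before to 50 after the start: Tnfrsf17 at chr16:11313559-11313858, Irf4 at chr13:30748983-30749282 and Edem1 at chr6:108828391-108828690. Capitals mark CCACG or its reverse complement CGTGG.
Tnfrsf17: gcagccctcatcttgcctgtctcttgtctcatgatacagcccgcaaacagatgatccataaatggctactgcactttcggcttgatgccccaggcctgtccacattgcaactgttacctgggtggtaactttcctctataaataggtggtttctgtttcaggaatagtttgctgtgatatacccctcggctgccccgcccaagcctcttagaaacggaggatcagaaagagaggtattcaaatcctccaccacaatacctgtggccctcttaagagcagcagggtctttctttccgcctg
Irf4: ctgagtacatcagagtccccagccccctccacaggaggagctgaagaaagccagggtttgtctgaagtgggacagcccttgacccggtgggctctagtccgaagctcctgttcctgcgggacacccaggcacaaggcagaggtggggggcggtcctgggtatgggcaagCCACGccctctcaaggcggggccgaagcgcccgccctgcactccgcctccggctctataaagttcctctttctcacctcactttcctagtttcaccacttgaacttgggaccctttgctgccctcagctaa
Edem1: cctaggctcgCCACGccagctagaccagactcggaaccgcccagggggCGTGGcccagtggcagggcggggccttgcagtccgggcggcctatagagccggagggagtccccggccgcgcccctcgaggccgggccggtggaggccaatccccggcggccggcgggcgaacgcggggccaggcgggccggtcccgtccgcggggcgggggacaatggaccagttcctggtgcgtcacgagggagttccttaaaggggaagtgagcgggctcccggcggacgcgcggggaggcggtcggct
The motif occurred 0 times in the Tnfrsf17, 1 time in the Irf4 and 2 times in the Edem1 window, and the octamer in none of the 3. Of 20 measured plasma cell genes 17 had a promoter in the table, and 11 of these held CCACG in at least 1 window, against 35.5% of 27025 genes. A match describes the letters only and is no evidence of binding.

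The response to ADR was compared between the groups from the change within each lymphoma, ADR minus untreated. No gene passed an adjusted p of 0.05 in limma. The groups did not overlap in 142 genes with a more positive (0.781%) and 156 with a more negative change (0.858%) in Jchain-high lymphomas, and 474 genes (2.61%) had a more positive and 501 (2.75%) a more negative change in Jchain-high lymphomas at an unadjusted p below 0.05. The smallest adjusted p was 0.163, for the membrane protein gene Tmem98. Its change was 0.33, 0.26, 0.08 and 0.19 in Jchain-high and 1.32, 1.64, 1.80, 1.93 and 2.25 in Jchain-low lymphomas, a difference of -1.57 ± 0.19. The next by p were the adaptor gene Plekha2 (1.13 ± 0.20), the LIM protein gene Crip2 (1.52 ± 0.31), the adhesion receptor gene Adgrl2 (-0.96 ± 0.20) and the actin regulator Enah (-1.44 ± 0.30). Crip2 changed by 1.13 to 2.62 in Jchain-high and by -0.21 to 0.90 in Jchain-low lymphomas, without overlap. Plasma cell genes had no common direction, with 8 of 20 above 0, against 52.8% of all genes, and a median of -0.10. Other lists were more one-sided. Above 0 were 18 of 19 G2/M genes (median 0.31), 17 of 20 S phase genes (0.27) and 17 of 20 Myc network genes (0.24). So were 19 of 21 genes of B cell receptor signalling (0.36). In each of these lists 0 members had an unadjusted p below 0.05 by limma. Not every list is given here for the change. Fibroblast genes lay below 0 in 21 of 23 cases with a median of -1.62, and with the change of the fibroblast mean as a covariate Tmem98 differed by -1.39 (limma adjusted p = 0.257).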

How the data were processed

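Expression was measured on 28 Affymetrix arrays of 14 lymphomas. Per the submitters' processing notes, the authors made the deposited log2 values with RMA, which corrects background, normalizes between arrays and summarises probes, and used Partek 6.5. A genome build for the arrays is not given in the sources used here. No column was left unmapped (0). Of 45101 probe sets, 34945 were paired with 1 gene by the platform annotation of 2016, 932 with several, 9160 with none and 64 were controls. Probe sets with 1 gene were used, and for 9009 genes with several the one with the highest mean was taken, which left 18194 genes, of which 18192 besides Jchain and Cd5 are counted.

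Lymphomas were grouped by untreated Cd5 and Jchain as the report describes. Groups were compared with limma 3.58.1 in R 4.3.3 (lmFit, eBayes), fitted on the lymphomas compared, with Benjamini-Hochberg adjustment over all genes at 0.05. ADR changes were tested on differences within lymphomas, whose arrays the labels pair. Deviations from the group means correlated at 0.23 to 0.58 within a lymphoma (median 0.35). Between lymphomas they correlated at -0.44 to 0.54 (median -0.05), so the ranges overlapped. Single values were also compared by a two-sided exact permutation test over lymphomas. All p-values measure the spread between these lymphomas. Errors after ± are limma standard errors. The fit was tested on simulated data.

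The members and the 24 gene lists (398 members, 358 of them measured) were chosen with earlier results of these data known. Genes named were the 10 largest differences in each direction among genes whose groups did not overlap, since none passed the threshold, a fixed list of 26 genes, up to 4 members per list with the smallest p, and the 5 smallest p of the ADR change. Many of the list members that this rule names are given only in their list's counts. Gpm6a, Oosp2, Tox2, Gm11269, Aldh1a7, A430035B10Rik, Ell2, Edem1, Sox4, Cd79a, Blnk, Fkbp11, Pawr and Mbnl3 fall outside it and were named after their values were seen. Not every gene of the fixed list is reported here. Promoters came from RefSeq. Alternatives concerned the probe set, a filter on mean level (6), centring, trend and array weights, covariates, the earlier series, the Cd5-high arrays and leaving out lymphomas. Leaving out 403 and 5560 together in ADR arrays was chosen after seeing the data.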

Additional observations from a re-analysis of the deposited data

Results flagged for a closer look

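In groups of 4 or 5 lymphomas, a value was marked when it stood apart from the others of its group by Dixon's criterion on untreated arrays. Chance marks about 1 in 20 groups, and 148 gene groups were checked. Values are on the log2 scale. Among stage markers, these were Dntt at 10.39 in lymphoma 3769 (other Jchain-low lymphomas at most 5.22), Vpreb1 at 9.45 and Igll1 at 9.71 in 5560, Rag2 at 5.30 in 2581, Fcer2a at 7.11 in 1467 and, among the Jchain-high lymphomas, Cr2 at 5.22 in 1570. Bach2 in lymphoma 3594 (9.43) and Bcl2 in the same lymphoma (11.94) lay above the other Jchain-high values, and Myc at 12.20 in 2581 lay above the other Jchain-low values.

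Ell2 stood at 2.17 in lymphoma 2581, where the other Jchain-low lymphomas had at least 8.35. Iglv1 stood at 5.64 in 1467, against at least 9.48 in the other Jchain-low lymphomas. Among genes that separated the groups, Cracdl was low in 1570 (4.82), Itih5 (8.89) and Ston2 (7.05) were high in 9584, Gm11269 was low in 9584 (3.62), Rpl39l was high in 1467 (7.04) and Nrp1 in 5560 (6.55). Crip2 was high in 1467 (6.90).

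Sex-linked genes stood apart as well. Xist was high in 1570 (11.51) among the Jchain-high lymphomas. The Y-linked genes Kdm5d (6.23) and Eif2s3y (9.19) were high in 403 among the Jchain-low lymphomas.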

How the results depend on the processing

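No paired analysis was possible because different lymphomas stand in the 2 groups, except for the ADR change, where leaving out the replicate block by lymphoma also gave 0 genes called (461 at an unadjusted p below 0.05, against 975 with it). The count of 0 untreated genes called by limma became 2 (Mamdc2 and Ak7) with all 14 arrays in the fit and 0 to 1 when 1 lymphoma was left out (Pawr without 3594, Cracdl without 1570). The count for ADR arrays stayed at 0 in each fit run. The count for the ADR change was 1 with array weights (Tmem98, -1.63, adjusted p = 0.0293) and 0 to 2 when 1 lymphoma was left out, with Tmem98 and Mbnl3 called without 1467. Plasma cell genes above in every Jchain-high lymphoma numbered 2 to 5 in untreated and 3 to 6 in ADR arrays without 1 lymphoma. Within the earlier series they numbered 6 and 7, where 3.51% and 3.11% of all genes were above in this way. Leaving lymphomas out can only keep or raise such counts, so these counts are no check of robustness. The plasma cell median in ADR arrays, 0.61, became 0.42 with the fibroblast covariate and 0.36 without 403 and 5560.

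Of 72 genes, 62 kept their sign in each alternative run. Genes named because their groups did not overlap cannot change sign when lymphomas are left out, so this count is partly fixed by the choice. Signs turned for Pax5 (-0.027 after median centring, -0.035 with array weights, -0.12 with the fibroblast covariate), Bcl6 (-0.037 with the Xist covariate, -0.43 within the earlier series), Bcl2 (0.22 by the most variable probe set), Sox4 (0.22 with the macrophage covariate), Iglv1 (-0.018) and Cd79a (-0.087, both with the fibroblast covariate). When 1 lymphoma was left out, differences ranged over -0.14 to 0.42 for Bcl6, -0.12 to 0.46 for Cr2, -0.062 to 0.40 for Edem1, -0.25 to 1.08 for Iglv1, -0.12 to 0.11 for Myc, -0.083 to 0.12 for Pax5, -1.13 to 0.53 for Sox4 and -0.0090 to 0.53 for Sdc1. The cause of these shifts was not tested. Genes of low signal are limited by the array background.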
